A study of Mus musculus with 4 samples.

Results

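Proliferating spots of the skin were defined here as the spots with the strongest expression of 6 genes that dividing cells transcribe, *Top2a*, *Cdk1*, *Ccna2*, *Pbk*, *Ube2c* and *Stmn1*. The score of a spot was the mean over these genes of the natural logarithm of 1 plus the UMIs per 10000 UMIs of the spot, and the 8% of spots with the highest score in each slice were taken. This gave 132, 140, 124 and 116 spots in slices 1 to 4, which is 512 of 6411 spots in all, or 7.99%. All values come from the Visium assay, in which the RNA of a thin section is captured on a grid of spots that each carry a barcode, and UMIs (unique molecular identifiers) count captured molecules.

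The skin was dorsal skin of 3 mice at P38. The mice were *Krox20*-CreERT; R26-tdTomato animals, in which a tamoxifen-dependent Cre stands at the *Krox20* locus with *Krox20* itself kept intact, and in which Cre switches on a *tdTomato* reporter from the *R26* locus. All 3 carried both alleles and were given 4-hydroxytamoxifen at P2, so there is no uninduced or wild-type group. The 4 slices each held 1 section of every mouse, whereas the sections of each mouse are not marked in the labels and the strain is not given in the sources used here. The slices are therefore technical replicates: every SD and p-value below measures the spread between slices and does not cover differences between mice. The study states that the authors set a further section aside for its distorted structure. Which spots it would hold is not given, so spots of all 4 slices were used. Each spot covers several cells, often of different types.

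The hair matrix is the pool of dividing epithelial cells at the base of a growing hair follicle. It surrounds the dermal papilla, a cluster of mesenchymal cells that signals to it, and its cells leave the cycle as they move upward into the hair shaft and the inner root sheath. Melanocytes sit among the matrix cells and pass pigment to the forming shaft. In a growing follicle the bulb reaches deep into the dermal fat, near the panniculus, the sheet of skeletal muscle under the skin. Matrix cells are known for WNT signaling through *Lef1*, for *Shh* and for *Msx* and *Dlx* homeobox genes.

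Genes that are switched on for mitosis often carry 2 short sequences before their start, a cell cycle homology region (TTTGAA) and a CCAAT box, whereas replication genes often carry an E2F site (TTTNNCGC). Kinesin-5 (*Kif11*), which pushes the spindle poles apart, and *Ect2*, which directs the closing of the cleavage furrow, are shown. Among the listed mitotic genes searched, they had the largest folds of those with both sequences in the 120 bases before the start. The search left out a whole chromosome and genes without a matched sequence, so mitotic genes with larger folds than *Ect2* can be missing. *Orc1*, a subunit of the origin recognition complex, is shown as the replication gene with the largest fold and an E2F site. They were chosen after their values were known, and capitals mark, on either strand, TTTGAA and CCAAT in *Kif11* and *Ect2* and the E2F letters in *Orc1*.
Kif11, chr19:37376262-37376381, plus strand: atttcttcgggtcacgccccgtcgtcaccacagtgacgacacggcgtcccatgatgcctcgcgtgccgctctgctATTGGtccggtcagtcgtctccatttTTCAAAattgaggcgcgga
Ect2, chr3:27153879-27153998, minus strand: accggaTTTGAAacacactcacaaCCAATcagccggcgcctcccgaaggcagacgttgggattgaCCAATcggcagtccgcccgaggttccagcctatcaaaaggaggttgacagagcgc
Orc1, chr4:108579334-108579453, plus strand: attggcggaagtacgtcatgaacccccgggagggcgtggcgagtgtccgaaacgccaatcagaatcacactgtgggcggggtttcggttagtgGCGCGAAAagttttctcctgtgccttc
The sequences are RefSeq's, in GRCm38.p6, and read 5′ to 3′ on the strand of the gene. Of the 13576 genes tested, 10559 matched RefSeq by symbol, with 13478 windows from 250 bases before to 50 after a start. TTTGAA stood in 36 of 51 windows of the mitotic list (70.6%; 48 of 57 genes matched), in 5 of 38 windows of the replication list (13.2%; 31 of 40 genes) and in 12.2% of all windows. It was accompanied by CCAAT in 62.7% of mitotic windows and in 4.94% of all windows. The E2F letters were found in 42.1% of replication, 15.7% of mitotic, 20% of ribosome biogenesis and 7.94% of all windows. CCAAT, with or without TTTGAA, stood in 76.5% of mitotic, 65.8% of replication and 37.2% of all windows. It was also in 4 of 6 windows of the inner root sheath list. TTTGAA was not particular to mitotic genes, since it was also found in 4 of 8 windows of the late hair shaft list (50%), a list that was lower in the proliferating spots. In 11 of all windows, 1 of them mitotic, TTTGAA and CCAAT overlapped. A match is a run of letters and not a measured binding site.

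The values that chose the spots are given as a description. The median score of proliferating spots was 1.01, 1.047, 1.02 and 0.975 in slices 1 to 4, against 0.248, 0.242, 0.241 and 0.255 in the other spots. The last spot inside the limit scored 0.833, 0.846, 0.821 and 0.753, and the first spot outside scored 0.832, 0.846, 0.815 and 0.750. There was thus no gap at the limit, and the proliferating spots are the upper end of a range. The 6 score genes together reached 1554 ± 53.8 UMIs per 1000000 UMIs (CPM; SD, n = 4 slices) in these spots and 322 ± 12.6 CPM in the others.

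Proliferating spots were deeper than the other spots. Their median total was 25085, 23317, 22625 and 21609 UMIs in slices 1 to 4, against 14049, 11351, 11248 and 11178 in the other spots. The ratio of the medians was 1.95 ± 0.118 (SD, n = 4 slices), above 1 in 4 of 4 slices, with p = 0.125 in an exact two-sided sign-flip permutation test, the smallest p that 4 slices allow. In all, 72.9% ± 3.92 of proliferating spots were among the 25% of spots of their slice with the most UMIs, and they held 13.4% ± 0.599 of all UMIs. The score itself rose with depth, with a correlation across spots of 0.362 to 0.446 per slice between score and the logarithm of the total. The slices held 26910311, 24127893, 21384031 and 19391734 UMIs.

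The number of detected genes was also higher. Proliferating spots had a median of 5322.5, 5159.5, 5243.5 and 5143.5 genes with a UMI, against 3888, 3435, 3506 and 3547 in the others. Once every spot was thinned at random to 5500 UMIs, the medians were 2123, 2117, 2208.5 and 2251 against 2172, 2170, 2231 and 2270. The order was then turned in each slice, by a small margin. Thinning left out 5 proliferating and 558 other spots. When the spots were chosen anew from thinned counts, 366 of 468 (78.2%) were among the 512. A score from 6 other genes of dividing cells (*Mki67*, *Birc5*, *Cenpf*, *Tpx2*, *Nusap1* and *Ccnb1*) shared 355 of 512 (69.3%).

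**Figure D1:**
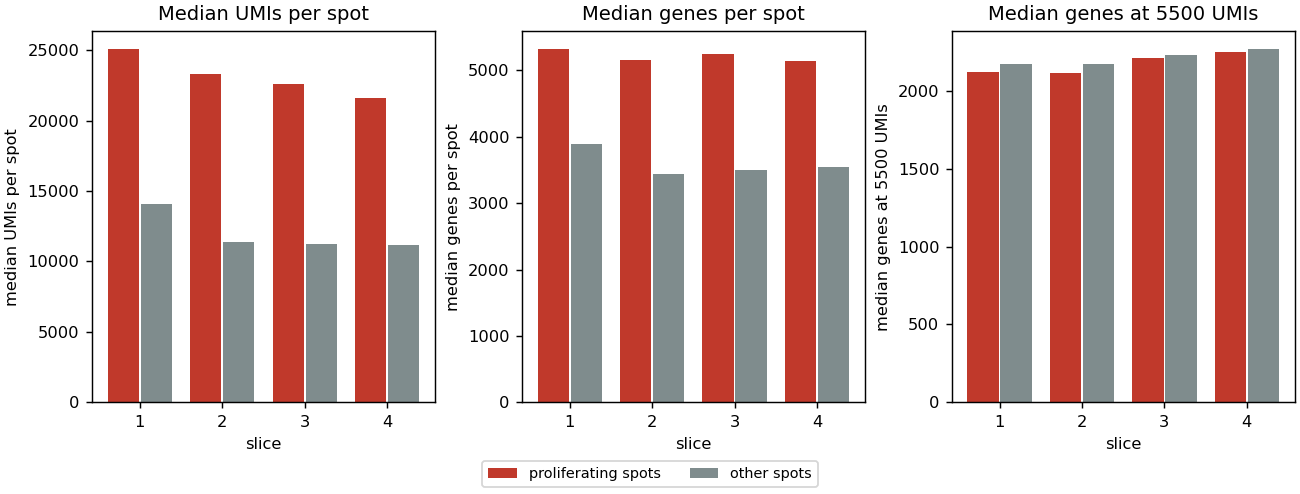
Median UMIs per spot, median genes per spot and median genes after thinning to 5500 UMIs, each for proliferating (red) and other (grey) spots of slices 1 to 4. UMIs and genes were higher in proliferating spots in every slice, by a UMI ratio of 1.95 ± 0.118, whereas the thinned gene numbers were nearly level and slightly lower in proliferating spots.

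Position was not used to choose the spots. Distance was counted in steps on the grid to the nearest spot of an epidermis set and of a panniculus muscle set, each taken as the 8% of spots richest in *Krt1*, *Krt10*, *Lor*, *Krtdap* and *Calm4* or in *Acta1*, *Ckm*, *Mylpf*, *Tnnt3*, *Myh4* and *Atp2a1*. Proliferating spots lay a median of 7, 7, 6 and 7 steps from the epidermis set in slices 1 to 4, against 4, 4, 3 and 4 steps for the others. They lay a median of 1 step from the muscle set in each slice, against 5, 4, 4 and 4. They were thus deep in the skin in every slice (exact sign-flip permutation p = 0.125, the smallest possible, for both distances). Within 2 steps of the muscle set were 88.9% ± 6.49 of proliferating and 29.4% ± 3.37 of other spots (SD, n = 4 slices). Within 1 step of the epidermis set were 1.13% ± 1.22 and 20.7% ± 0.725.

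Proliferating spots lay in small groups. Of the 6 neighbours of a proliferating spot, 26.6% ± 3.62 were proliferating themselves, against 6.60% ± 0.282 of the neighbours of other spots. At least 1 proliferating neighbour was found beside 83.7% ± 1.94 of them. They formed 50, 46, 45 and 54 connected groups in slices 1 to 4, with a median of 2 spots and at most 8, 11, 12 and 7. Neighbouring spots can receive RNA from the same bulb, and free RNA can spread between spots. Their part in this grouping was not tested.

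**Figure D2:**
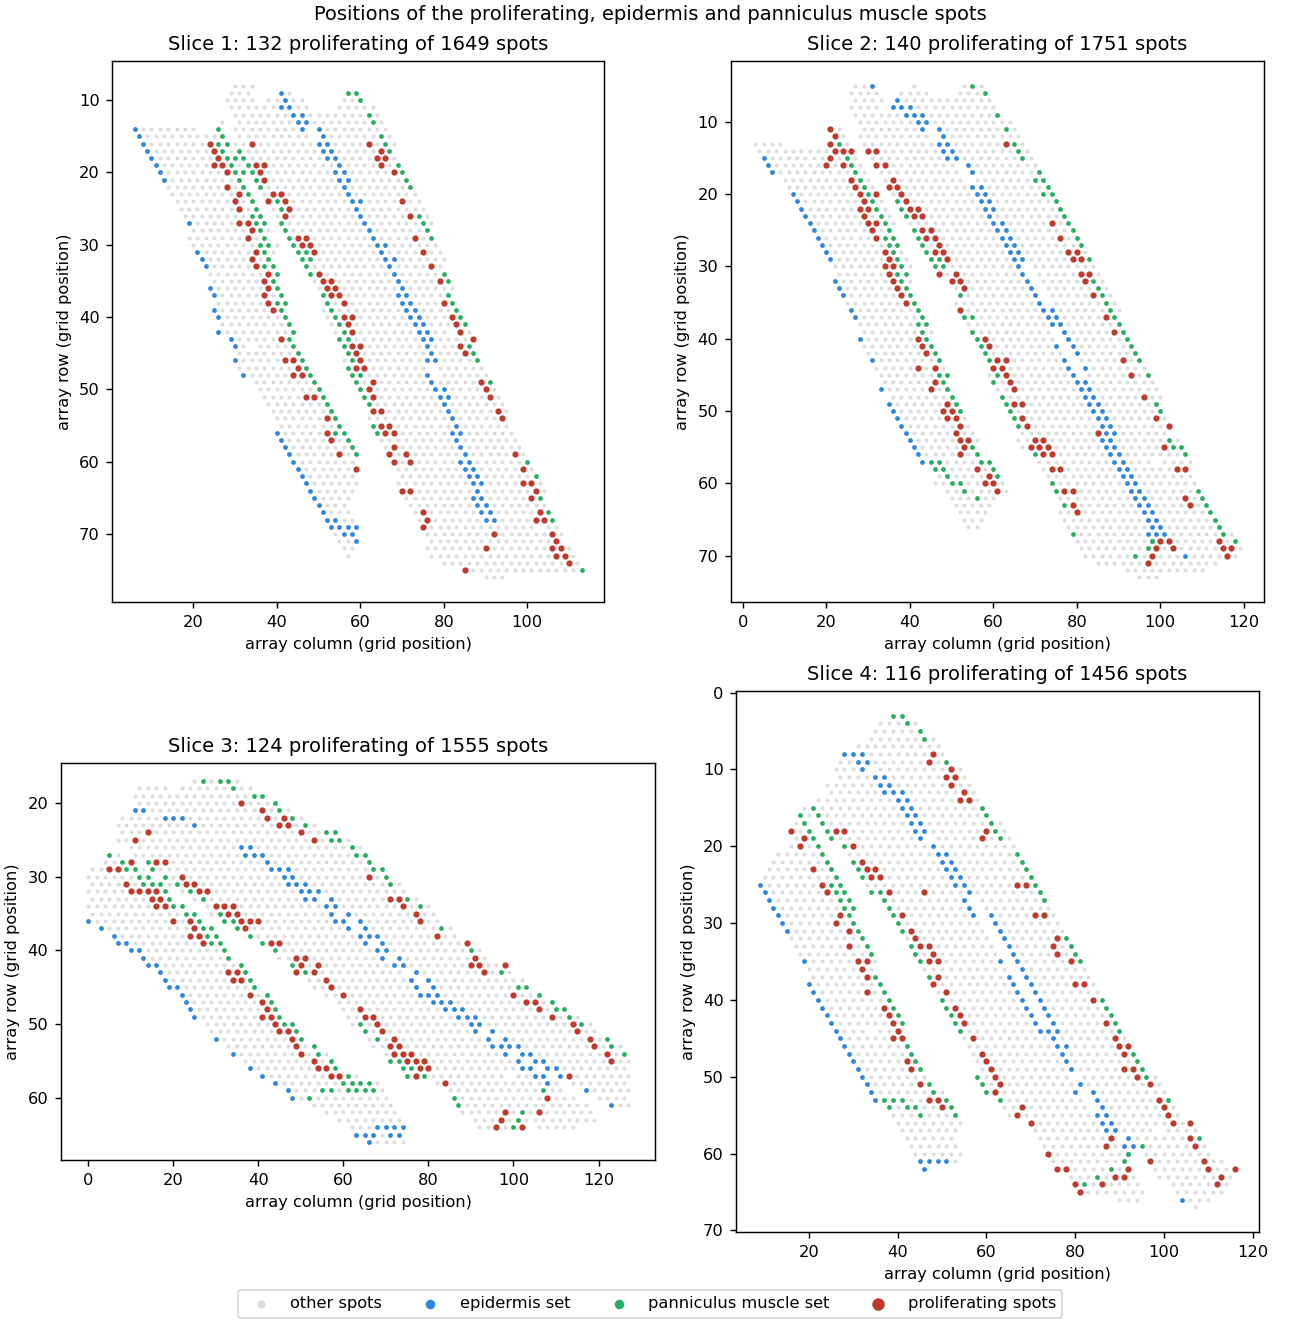
Array positions of proliferating spots (red), of the epidermis (blue) and panniculus muscle (green) sets and of all other spots (grey) in slices 1 to 4. The red spots form small groups beside the muscle set, a median of 1 step from it, and lie a median of 6 or 7 steps from the epidermis set.

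Around the proliferating spots lay spots rich in the genes of other bulb cells. Sets of early hair shaft, inner root sheath and melanocyte-rich spots were taken by the same 8% rule from *Krt35*, *Krt32*, *Krt82* and *Dsg4*, from *Krt25*, *Krt27*, *Krt28*, *Krt71*, *Krt72* and *Krt73*, and from *Dct*, *Tyr*, *Tyrp1*, *Pmel*, *Mlana* and *Slc45a2*. *Krt85* was not analysed here. A melanocyte-rich spot lay within 1 step of 71.7% ± 2.03 of proliferating and 26.4% ± 1.09 of other spots (SD, n = 4 slices). For the early hair shaft set, the shares were 56.0% ± 2.79 and 29.1% ± 0.417. For the inner root sheath set they were 41.9% ± 4.73 and 30.2% ± 0.767. Each set holds 8% of all spots, and 63 of the 512 proliferating spots (12.3% of either set) were also melanocyte-rich, 5 were early hair shaft spots, 1 was an inner root sheath spot and 0 were epidermis spots. Of the proliferating spots, 36 (7.03%) were in a set rich in adipocyte genes and 14 (2.73%) in the muscle set.

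UMIs were summed per slice over the proliferating spots and over all 5899 other spots and compared by edgeR's quasi-likelihood test with slice as a block, and p-values were adjusted by the Benjamini-Hochberg procedure over all genes. Most genes passed: of 13576 genes outside the score, 71.1% were called at an adjusted p under 0.05, 34.8% higher and 36.3% lower in proliferating spots. The median log2 fold of all genes was -0.03. At a log2 fold of at least 1, 916 genes (6.75%) were higher and 2164 (15.9%) lower, and at matched depth, with each proliferating spot set against the other spot of its slice nearest in UMIs, 500 and 954. The ranges of the 4 slices did not overlap for 28.0% of genes on the higher and 30.7% on the lower side. A 2nd comparison used the 1437 spots that touch a proliferating spot without being one, which shares location within the skin. There, 28.3% of 12093 genes were higher and 29.5% lower, with 429 genes (3.55%) higher and 1028 (8.5%) lower by a log2 fold of at least 1. Both comparisons use the same proliferating spots, and the adjacent spots are part of the other spots.

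Replication, nucleotide synthesis and mitotic genes outside the score were higher with 1 exception, whereas regulators of the cycle were split. Cell cycle genes that were higher are transcribed in the same dividing cells as the score genes, so the choice of spots fixes their direction. That direction is no independent evidence, and the values are given as a description of how far and how evenly these genes moved. All 40 genes of the replication list passed the filter on low counts and were higher, with a median log2 fold of 1.78 against all other and 1.35 against adjacent spots. *Orc1* had the largest log2 fold, 2.55, with 4.91, 7.78, 6.65 and 9.13 CPM in the proliferating spots of slices 1 to 4 and 0.981, 1.11, 1.36 and 1.36 CPM in the others. *Pcna*, the sliding clamp of DNA polymerase, had 314, 352, 335 and 310 CPM against 95.3, 97.3, 96.2 and 98.7. The groups did not overlap for either gene. *Exo1*, an exonuclease of DNA repair, rose by 2.38, *Rad51ap1* by 2.31 and the replication checkpoint gene *Clspn* by 2.26 on the log2 scale, and *Rfc2* had the smallest log2 fold of the list, 1.02.

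The synthesis of nucleotides followed with 1 exception. Of 20 genes, 19 were higher and 1 was lower, where 34.8% of all genes were higher and 36.3% lower. Their median log2 fold was 1.43. Thymidine kinase (*Tk1*) had 93.3, 103, 84.8 and 79.8 CPM in proliferating and 19.1, 21.0, 20.2 and 18.4 CPM in other spots, a log2 fold of 2.21. The dUTPase gene *Dut* (2.12) and the ribonucleotide reductase subunit *Rrm2* (2.02) came next. *Ctps*, CTP synthase, fell by 0.66 on the log2 scale (150 against 238 CPM; adjusted p = 4.6e-11 in edgeR) and by 1.10 against adjacent spots.

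All 57 genes of the G2 and mitosis list were higher, by a median log2 fold of 2.01 against all other and 1.46 against adjacent spots. Their summed level was 3634, 3655, 3628 and 3604 CPM in proliferating spots, a range narrower than that of the other spots (960, 1034, 1053 and 993 CPM). *Mki67*, a coat protein of mitotic chromosomes widely used as a marker of dividing cells, had 280, 304, 310 and 279 CPM against 60.6, 70.4, 76.9 and 70.5. The condensin subunit *Ncapg* had the largest log2 fold of the list, 2.40, with 50.8, 47.6, 54.6 and 42.9 CPM against 8.999, 9.62, 9.09 and 9.66. In both genes every proliferating sum lay far above every other sum. The kinetochore gene *Cenpm* (2.34), the spindle motors *Kif11* (2.30) and *Kif2c* (2.29) and the kinase *Aurkb* (2.29) followed. *Bub3*, of the spindle checkpoint, had the smallest log2 fold, 0.86.

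Depth was checked on these lists. At matched depth, the median log2 fold was 1.56 for replication and 1.71 for G2 and mitosis, with all 40 and all 57 genes higher, where 27.7% of 11471 genes were higher and 27.5% lower and the median over all genes was 0.01. After thinning and choosing the spots anew, it was 1.68 for the 40 replication and 1.92 for the 56 mitotic genes that passed the filter. At the matched depth *Mki67* had a log2 fold of 1.78, against 2.08 over all other spots.

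Regulators of the cycle were split. Of 29 regulators that passed the filter, 19 were higher and 5 lower, where 34.8% of all genes were higher and 36.3% lower. Their median log2 fold was 0.93. *Foxm1*, which activates mitotic genes, had 28.3, 25.7, 29.9 and 34.9 CPM in proliferating and 6.91, 7.36, 8.43 and 7.47 CPM in other spots, a log2 fold of 1.97. *E2f8* (1.89), *Ccne1* (1.86), *Ccne2* (1.84), *Rbl1* (1.80) and *Cdk4* (1.36) were also higher. Of the D-type cyclins, *Ccnd2* had 383, 418, 461 and 426 CPM against 207, 198, 220 and 244 (log2 fold 0.96; 1.00 against adjacent spots), whereas *Ccnd3* was lower (-0.38) and *Ccnd1* turned with the comparison, at -0.31 against all other and 0.27 against adjacent spots (adjusted p = 4.2e-05 and 0.00073 in edgeR).

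Inhibitors of cyclin-dependent kinases did not move together. *Cdkn1a*, which encodes p21 and halts the cycle, had 113, 93.7, 111 and 120 CPM in proliferating and 216, 184, 205 and 220 CPM in other spots, and fell by 0.91 on the log2 scale (adjusted p = 6.8e-14 in edgeR; 1.01 lower against adjacent spots). Its groups did not overlap. *Cdkn1c* was also lower (-0.57), *Cdkn2c* (1.08) and *Cdkn2d* (1.04) were higher, and *Cdkn1b* did not pass the test against all other spots (0.02, adjusted p = 0.84) but was higher than in adjacent spots (0.40, adjusted p = 0.00022). *Mybl2*, which acts with *Foxm1* in activating mitotic genes, was lower than in all other spots (-0.40, adjusted p = 0.00017) and did not pass the test against adjacent spots (0.03, adjusted p = 0.83).

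Of 28 chromatin and tubulin genes 25 rose and 3 fell, all 3 of them tubulins, where 34.8% of all genes were higher and 36.3% lower. The high-mobility-group genes *Hmgn2* and *Hmgb2* had log2 folds of 2.20 and 2.14, and the linker histone *Hist1h1b* 2.04. *H2afz*, a histone variant, had 1619, 1680, 1480 and 1426 CPM against 440, 464, 424 and 397, with a log2 fold of 1.85 (adjusted p = 9e-21 in edgeR). Its levels in proliferating spots stood well apart from all other values. The tubulins that fell were *Tubb2b* (-1.68), *Tuba1a* (-0.81) and *Tubb4b* (-0.11), whereas *Tubb5* (1.41) led the other tubulins, which rose. Histone and tubulin genes have near-identical copies among which UMIs can be divided, so values of single members are less certain.

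Making ribosomes is a main expense of fast-dividing cells. All 28 genes of the ribosome biogenesis list were higher, by a median log2 fold of 0.97 against all other and 0.50 against adjacent spots, and all 28 were higher at matched depth (0.62). *Mycn* had 67.8, 65.5, 64.9 and 82.6 CPM in proliferating and 16.1, 13.6, 16.8 and 18.0 CPM in other spots, a log2 fold of 2.12 (adjusted p = 4.7e-17 in edgeR). *Mycl* had 227, 220, 216 and 234 CPM against 60.01, 56.4, 62.7 and 63.5, a log2 fold of 1.89, and *Myc* itself 0.81. All 3 Myc genes, which drive growth programs, were thus higher, *Myc* the least. *Odc1*, the first enzyme of polyamine synthesis, had a log2 fold of 1.59, and the nucleolar chaperone *Npm1* had 1125, 1080, 1104 and 1135 CPM against 447, 453, 480 and 479 (log2 fold 1.26).

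**Figure D3:**
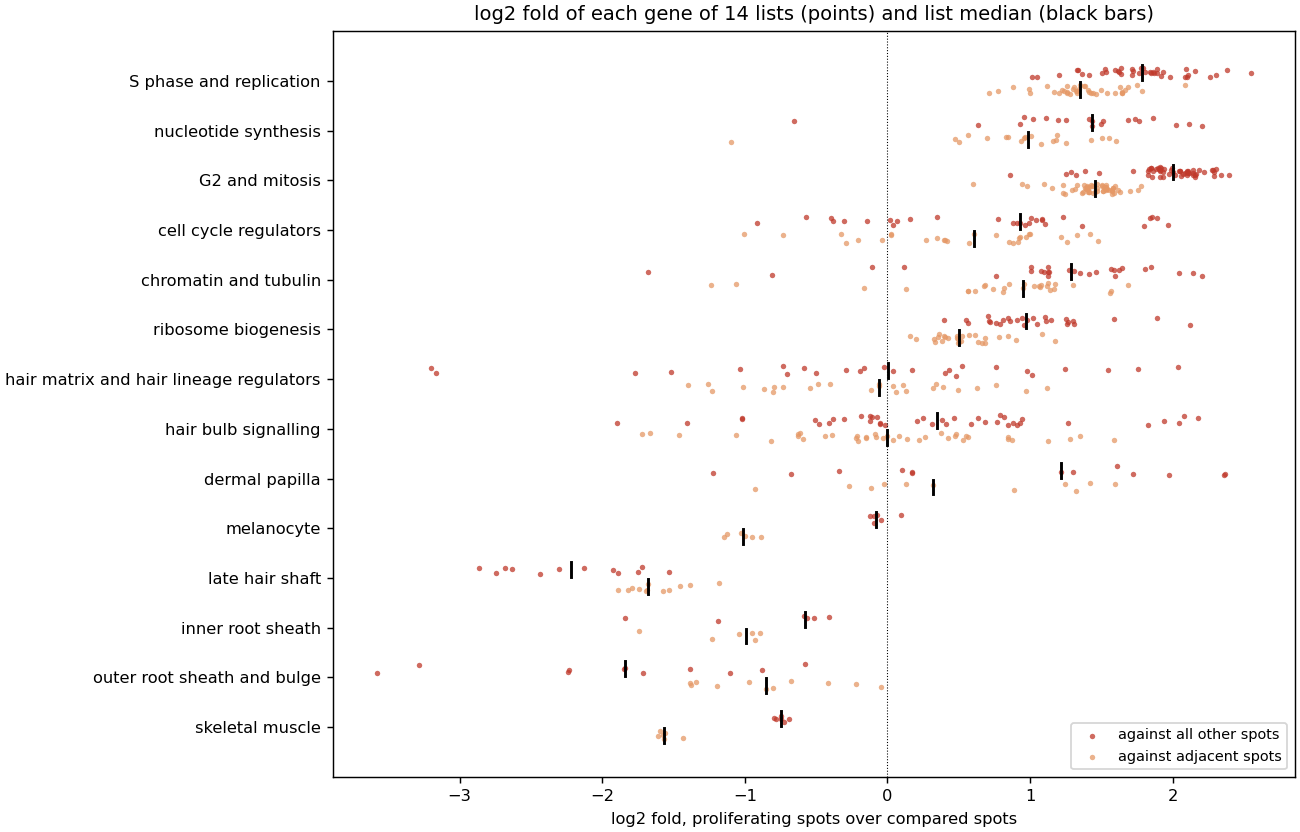
The log2 fold of every gene (points) of 14 lists in proliferating spots against all other spots (red) and adjacent spots (orange), with the list median as a black bar. Every replication, mitotic and ribosome biogenesis gene lies above 0 in both comparisons, the regulator, signaling and dermal papilla lists spread to both sides, and the late hair shaft and root sheath lists lie below 0.

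The label of hair matrix was checked on regulators outside the cell cycle, and no gene of this list marks the matrix alone. Of 26 regulators of the matrix and of hair lineages, 11 were higher and 12 lower, with a median log2 fold of 0.01, where 34.8% and 36.3% of all genes were higher and lower. *Lef1*, a DNA-binding partner of beta-catenin, had 70.7, 92.2, 106 and 102 CPM in proliferating spots and 34.5, 39.3, 43.7 and 38.3 CPM in the others (log2 fold 1.24, adjusted p = 4.8e-14 in edgeR). The lowest proliferating sum was above the highest other sum. *Msx1* had 65.2, 69.1, 66.2 and 76.6 CPM against 19.8, 17.6, 22.5 and 22.5 (log2 fold 1.75), and *Dlx1* 20.5, 14.96, 15.3 and 13.1 CPM against 3.50, 4.04, 4.63 and 3.67 (2.03). *Dlx2* (1.55), *Sox21* (1.01), *Cux1* (0.98) and *Msx2* (0.76) were higher as well.

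Of the 12 regulators that were lower, *Barx2* and *Sox9* had the lowest log2 folds. *Sox9*, a regulator of the outer root sheath and stem cells, had 28.3, 23.9, 18.6 and 42.9 CPM in proliferating and 223, 223, 263 and 304 CPM in other spots, and fell by 3.17 on the log2 scale (adjusted p = 9.9e-19 in edgeR). *Barx2* (-3.20), *Tcf7l1* (-1.77) and *Prdm1* (-1.52) were lower as well. The groups of *Sox9* were far apart. *Foxn1* (-0.50) and *Hoxc13* (-0.29), which switch on hair keratins, were lower to a smaller extent.

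Against the early hair shaft, inner root sheath and melanocyte-rich sets the picture of *Lef1* changed. It was higher than in inner root sheath spots (log2 fold 0.87, adjusted p = 6e-09), did not pass the test against early hair shaft spots (-0.05, adjusted p = 0.57) and was lower than in melanocyte-rich spots (-0.29, adjusted p = 0.0019, all in edgeR). *Lhx2*, a regulator of follicle progenitors, was slightly lower than in all other spots (-0.19) but higher than in adjacent (0.62), early hair shaft (0.89) and melanocyte-rich spots (1.15). *Myb*, a regulator of dividing progenitors that was in no list, was higher in every comparison, with log2 folds of 2.51 against all other, 1.83 against adjacent, 2.61 against early hair shaft and 2.73 against melanocyte-rich spots. These comparisons share the proliferating spots. They called 29.6% of 10947 genes higher against early hair shaft, 32.6% of 10809 against inner root sheath and 22.7% of 10941 against melanocyte-rich spots, and 30.0%, 31.8% and 23.8% lower. The split depended on the scaling: with library size alone in place of TMM factors, 4956 genes were higher and 2581 lower than in inner root sheath spots, where TMM gave 3523 and 3438, and 3989 were higher and 2794 lower than in early hair shaft spots, where TMM gave 3242 and 3285. Library size alone raised the median log2 fold of all genes by 0.23 and 0.11 in these 2 comparisons, so small differences there are relative to that shift. Of the list of matrix and lineage regulators, more genes were lower than higher in each of these comparisons and against adjacent spots. There were 8 higher and 10 lower of 26 against adjacent and 6 and 15 of 25 against early hair shaft spots. The counts were 8 and 12 of 24 against inner root sheath and 7 and 13 of 25 against melanocyte-rich spots. The list as a whole thus did not set these spots apart as hair matrix, and they are called proliferating spots here.

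Signaling genes moved both ways. Of 40 signaling genes that passed the filter, 22 were higher and 9 lower, with a median log2 fold of 0.35, where 34.8% of all genes were higher and 36.3% lower. *Shh*, the ligand of the hedgehog pathway, had 15.6, 20.6, 16.6 and 18.7 CPM in proliferating spots and 2.99, 4.96, 3.59 and 4.39 CPM in the others (log2 fold 2.18, adjusted p = 1.4e-12 in edgeR; 1.59 against adjacent spots). *Gli1*, a transcription factor switched on by that pathway, had 36.7, 41.3, 30.6 and 35.7 CPM against 9.72, 10.01, 9.90 and 11.4 (1.83). For both genes the lowest proliferating sum was more than the highest other sum. The inhibitory receptor *Hhip* (2.04), the receptor *Ptch1* (0.84), *Gli2* (0.93) and *Smo* (0.38), which transmits the signal, passed in the same direction. These members of the pathway were picked from the signaling list and were not a list of their own.

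WNT ligands were divided. *Wnt10b* (log2 fold 1.27) and *Wnt10a* (0.59) were higher and *Wnt3* (-1.41) lower. *Axin2*, a WNT target, was higher than in all other spots (0.77) and did not pass against adjacent ones (0.14). The BMP ligands *Bmp2* (-1.02), *Bmp4* (-0.51) and *Bmp7* (-0.41) were all lower, and the BMP target *Id3* was higher (0.82) whereas *Id1* did not pass (-0.01). *Nog*, a secreted BMP antagonist, was higher by 0.88 at under 7 CPM in each slice. Of growth factor receptors, *Fgfr2* was higher (0.94) and the ligands *Fgf22* (-1.89) and *Areg* (-1.02) lower. *Edar*, the ectodysplasin receptor, had 3.1 against 0.7 CPM and did not pass the filter against adjacent spots. At so low a level its passing against all other spots can rest on the proliferating spots alone, so no fold is read. *Notch1* (0.79), *Jag1* (0.64) and *Dll1* (0.46) were higher, *Notch2* (-0.48) lower.

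With adjacent spots as the comparison, 16 of 39 signaling genes were higher and 13 lower, and the median log2 fold was 0.00, where 28.3% and 29.5% of all genes were higher and lower. Against early hair shaft, inner root sheath and melanocyte-rich spots, 36 signaling genes each passed the filter. Compared with early hair shaft spots, 13 were higher and 18 lower (median log2 fold -0.17), where 29.6% and 30.0% of all genes were. For inner root sheath spots these were 15 and 17 (0.05), where 32.6% and 31.8% of all genes were. For melanocyte-rich spots they were 12 and 16 (-0.14), where 22.7% and 23.8% of all genes were. The split of all genes against early hair shaft and inner root sheath spots moved with the scaling, as given above. At matched depth 15 of 36 were higher and 12 lower (0.06), against 27.7% and 27.5% of all genes, and *Shh* had a log2 fold of 1.73. Shares of spots with a UMI were counted at 5500 UMIs per spot. *Shh* was found in 8.28% ± 3.19 of proliferating spots (SD, n = 4 slices), 2.79% of muscle and 1.75% of epidermis spots. *Lef1* was found in 39.9% ± 3.79 of proliferating spots, 24.2% of muscle and 6.30% of epidermis spots. Muscle spots, whose fibres are not a known source of either gene, give the level that free RNA and nearby cells can reach, and most proliferating spots held no *Shh* UMI at this depth.

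**Figure D4:**
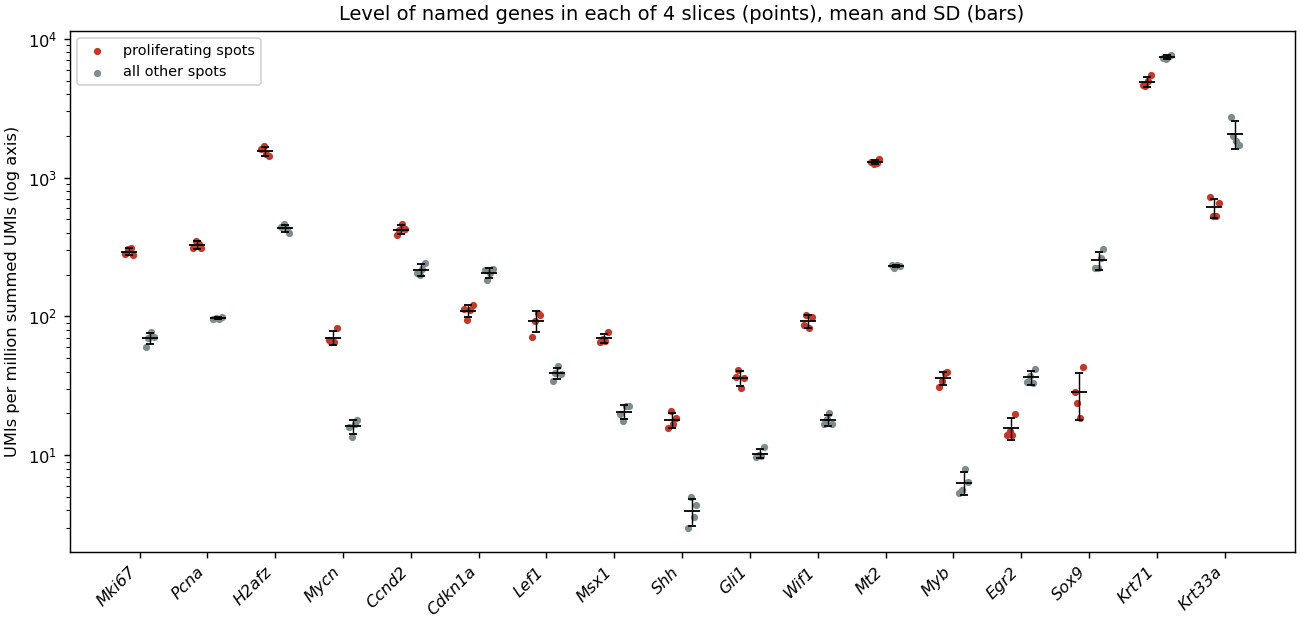
Levels of 17 named genes in CPM (log axis) for proliferating (red) and all other (grey) spots, with a point per slice and the mean and SD as bars. *Mki67*, *Shh*, *Wif1* and *Mt2* sit higher in proliferating spots in all 4 slices without overlap, and *Cdkn1a*, *Egr2* and *Sox9* lower.

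Dermal papilla genes were partly higher. Of 13 that passed the filter, 7 were higher and 2 lower, where 34.8% of all genes were higher and 36.3% lower. Their median log2 fold was 1.22. In bulk sums of this kind, fewer cells of a type and less RNA per cell cannot be told apart. *Wif1*, a secreted WNT inhibitor and the most abundant gene of the list, had 86.6, 102, 82.5 and 98.9 CPM in proliferating and 16.7, 18.1, 20.1 and 16.8 CPM in other spots (log2 fold 2.37, adjusted p = 1.2e-17 in edgeR). *Corin*, a protease of the papilla surface, had 13.3, 28.4, 23.3 and 17.5 CPM against 4.01, 4.38, 3.70 and 3.85 (2.36), and the retinoic acid binding protein *Crabp1* had 20.8, 44.6, 37.3 and 37.3 CPM against 10.3, 8.27, 7.89 and 8.48 (1.97). For all 3 the groups did not overlap, with *Corin* and *Crabp1* lowest in slice 1. *Alx4* (1.72), *Rspo3* (1.61), *Ndnf* (1.30) and *Fgf10* (1.22) were higher, *Prlr* (-1.22) and *Sfrp2* (-0.68) lower, and *Fgf7* (0.10), *Vcan* (0.18) and *Alpl* (-0.34) did not pass.

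The summed level of the 15 papilla genes was 174, 249, 217 and 231 CPM against 87.3, 92.5, 96.8 and 100.04, and none was at 0 in the proliferating spots. Without slice 2, 5 of 13 were higher, with a median log2 fold of 0.75, where 31.9% of all genes were higher. After thinning 4 of 10 were higher (0.41), where 22.9% of all genes were, and at matched depth 4 of 9 (0.29), where 27.7% of all genes were higher and *Wif1* had a log2 fold of 1.76. Against adjacent spots 5 of the 11 that passed the filter were higher and 1 lower (0.32), where 28.3% of all genes were higher and 29.5% lower. *Corin* was found in 10.8% ± 3.60 of thinned proliferating spots (SD, n = 4 slices), 1.405% of muscle and 0.639% of epidermis spots. The part of papilla cells within these spots in the results for *Wif1*, *Gli1* and other genes was not tested.

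Melanocyte genes depended on the neighbours chosen. None of the 6 was called against all other spots by edgeR, at an unadjusted p under 0.05 either, or by DESeq2 (median log2 fold -0.08), with summed levels of 476, 472, 766 and 607 CPM against 626, 541, 557 and 597; the groups overlapped, and *Pmel* was the most abundant. Against adjacent spots all 6 were lower (-1.01). Once adjacent spots were left out of the others, all 6 were higher (0.78), and at matched depth all 6 were lower (-0.62). Without slice 3, 4 of the 6 were lower than in all other spots, and without slice 1, 1 was higher. None of the 6 was at 0 in the proliferating spots.

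Muscle genes were lower in spots that lay beside the panniculus. All 6 were lower than in all other spots (median log2 fold -0.74) and than in adjacent spots (-1.57), with summed levels of 2757, 3184, 3425 and 3127 CPM against 4201, 5589, 5902 and 5358, *Acta1* being the most abundant. The result against all other spots depended on the choice of spots: 1 of 6 was lower with the top 12% of spots (0.00), 0 of 6 with thinned spots chosen anew (-0.03) and 4 of 6 without adjacent spots (-0.14). They were higher than in early hair shaft (1.68, 6 of 6) and inner root sheath spots (2.16, 6 of 6). In those 2 comparisons fibroblast genes were higher as well, 5 of 6 against early hair shaft (median log2 fold 0.77) and 4 of 6 against inner root sheath spots (0.65), with mean summed levels of 2849 against 1274 CPM and 2842 against 1255 CPM. *Col3a1* was the most abundant of them, none was at 0 and the sum was higher in 4 of 4 slices. The sum of all 15 papilla genes was higher too, with 219 against 73.6 CPM and 218 against 57.4 CPM. Only 6 of the 15 passed the filter in each comparison. Of these, 5 and 4 were higher, where 29.6% and 32.6% of all genes were. Passing the filter can rest on the level in the proliferating spots, so these counts are a description. The sums of muscle, fibroblast, papilla and cell cycle genes were thus all higher there. *Pygm* (2.46) and *Mybpc2* (2.51) of muscle were among the genes highest against inner root sheath spots. The part of muscle, fibroblast and papilla RNA was not tested. Against melanocyte-rich spots none of the 6 was called by edgeR, at an unadjusted p under 0.05 either, or by DESeq2 (median log2 fold 0.08).

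Genes of differentiated hair and skin layers were lower. All 12 late hair shaft genes were lower (median log2 fold -2.22; 3165 ± 697 against 13523 ± 3486 CPM, SD, n = 4 slices), among them the keratin-associated protein *Krtap4-1* (-2.87) and the keratin *Krt31* (-1.53). All 6 inner root sheath keratins were lower (-0.57), *Krt72* the most (-1.84). *Krt71* had 4673, 4544, 4984 and 5486 CPM against 7299, 7184, 7408 and 7660 (-0.59), and a *Krt71* UMI was found in 100% of thinned spots of every set, so presence alone says nothing of this layer. *Krt35*, among the earliest shaft keratins, had 456, 380, 458 and 428 CPM against 448, 450, 435 and 382 and did not pass the test (0.01, adjusted p = 0.92), whereas it was lower than in adjacent spots (-0.91, adjusted p = 1.2e-18) and at matched depth (-0.78). Its direction turned with the spots compared, since it was higher once adjacent spots were left out of the others (0.78, adjusted p = 2e-09 in edgeR) and with the top 12% of spots (0.13). *Krt32* was lower in both comparisons (-1.61 and -1.98).

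All 11 outer root sheath and bulge genes were lower (-1.84), from *Krt6a* (-3.58) and *Krt14* (-3.28) to the stem cell gene *Lgr5* (-0.58). The 5 suprabasal epidermis genes (-3.41), the 8 sebaceous gland genes (-2.41), the 6 immune genes (-2.14), the 6 endothelial and the 6 Schwann cell genes were all lower, with 3 of 6 endothelial genes lower at matched depth. So were 5 of 6 smooth muscle and pericyte genes and 5 of 6 fibroblast genes (-1.29). Of 6 adipocyte genes, *Adipoq* was higher (0.20) and *Cidec* (-0.29) and *Fabp4* (-0.95) lower. None of the genes on these lists was at 0 in the proliferating spots. The direction for *Adipoq* depended on the spots, with a log2 fold of -0.05 after thinning that did not pass the test.

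Levels by distance from the nearest proliferating spot placed these lists in order. At 0, 1, 2, 3, 4 and 5 or more steps there were 512, 1437, 1113, 868, 790 and 1691 spots, and all spots beyond step 0 are low in the score by construction. Mitotic genes dropped from 3630 ± 20.9 CPM at step 0 to 1399 ± 56.8 at step 1 and 942 ± 80.9 at step 2 (SD, n = 4 slices), and reached 763 ± 24.4 at 5 or more steps. Papilla genes dropped from 218 ± 31.9 to 116 ± 7.58 and were lowest, at 71.6 ± 9.63, at step 3. Both were thus highest in the proliferating spots themselves.

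Melanocyte genes instead peaked at step 1, with 1117 ± 91.3 CPM against 580 ± 139 at step 0 and 409 ± 62.8 at step 2. Early hair shaft genes also peaked at step 1, with 1074 ± 69.2 against 503 ± 39.6 and 650 ± 83.7. Late hair shaft genes peaked at step 2 (21784 ± 4933 CPM against 3165 ± 697 at step 0), and outer root sheath genes at step 4 (15771 ± 625 against 2164 ± 287). At step 3 late hair shaft genes had 18422 ± 4961 CPM, within the spread of step 2 but lower in each slice. Among the bulb and follicle lists with a peak, dividing cells and papilla came first, then melanocytes and early shaft, late shaft and outer root sheath. The choice of spots fixed the place of the dividing cells. The outer root sheath list holds *Krt14*, which the study also uses as a marker of epidermis. Inner root sheath keratins had 28236 ± 1346 CPM at step 1 and 29902 ± 1128 at step 2, against 13985 ± 1106 at step 0. Their order turned in slice 4, with 30117 CPM at step 1 and 29679 at step 2, so no peak is given. Muscle genes peaked at step 1, with 9163 ± 1073 against 3123 ± 276 at step 0. A step away leads up, down or sideways in the section, so the profile mixes directions.

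**Figure D5:**
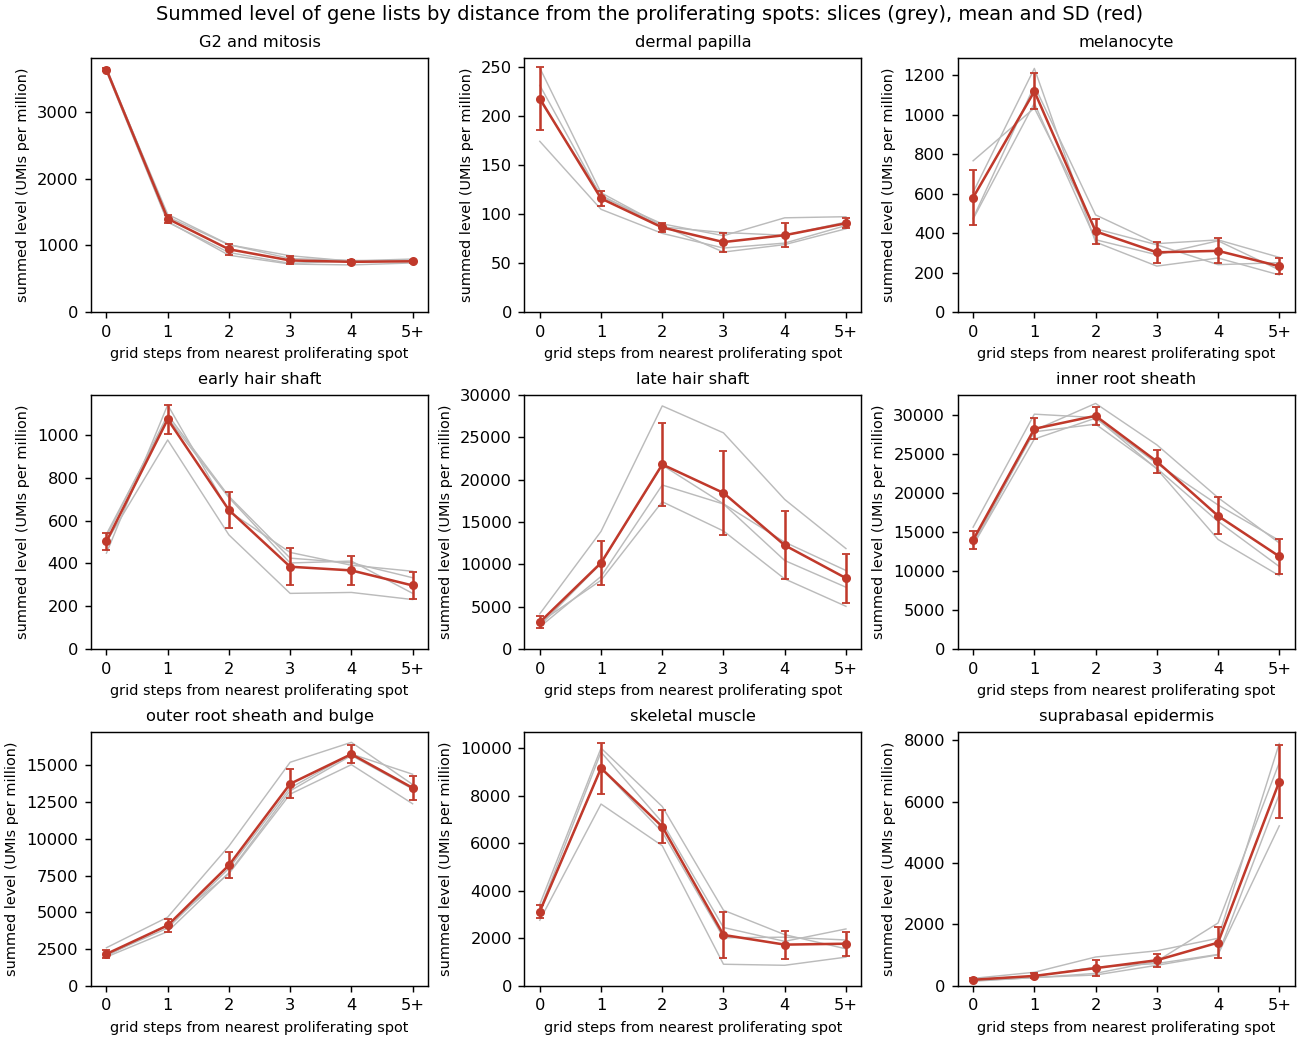
Summed level of 9 gene lists in CPM by grid steps from the nearest proliferating spot, with slices in grey and the mean and SD over 4 slices in red. Mitotic and dermal papilla genes are highest at step 0, melanocyte, early hair shaft and muscle genes at step 1, late hair shaft genes at step 2 and outer root sheath genes at step 4.

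The proliferating spots also varied among themselves. The sum of G2 and mitosis genes in single spots ran from 2233 CPM at the 10th to 4935 CPM at the 90th percentile, a ratio of 2.21, and ribosome biogenesis genes from 4155 to 7075 (1.70). Melanocyte genes ran from 52.5 to 1038 CPM (19.8) and skeletal muscle genes from 161 to 10509 CPM (65.3). Hair lineage regulators (1.82) and signaling genes (1.79) had ratios a little above that of ribosome biogenesis genes, and replication genes a larger one (2.72). For papilla genes the 10th percentile was 0 and the 90th 481 CPM. Percentiles over single spots include counting error, which is larger for lists of lower level.

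Outside the lists, metallothioneins and *Saa3* stood out. *Mt2* (ENSMUSG00000031762), a metallothionein that binds zinc and copper, had 1290, 1252, 1285 and 1356 CPM in proliferating and 234, 224, 236 and 230 CPM in other spots (log2 fold 2.49, adjusted p = 5.8e-22 in edgeR). *Mt1* had 1393, 1411, 1208 and 1252 CPM against 265, 263, 248 and 241 (2.37, adjusted p = 6.6e-22). Both genes were at like levels in all slices, with no overlap. *Mt2* was also higher than in adjacent (1.70), early hair shaft (2.85), inner root sheath (3.36) and melanocyte-rich spots (1.99), and it had a log2 fold of 2.07 at matched depth. The 2 genes are close paralogs, and UMIs may be divided between them.

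Metallothionein genes are switched on by metals through metal response elements with the core TGCNCNC. *Mt2* is shown for its copies of this core in the 250 bases before the start, in capitals on either strand, from RefSeq in GRCm38.p6.
Mt2, chr8:94172368-94172617, plus strand: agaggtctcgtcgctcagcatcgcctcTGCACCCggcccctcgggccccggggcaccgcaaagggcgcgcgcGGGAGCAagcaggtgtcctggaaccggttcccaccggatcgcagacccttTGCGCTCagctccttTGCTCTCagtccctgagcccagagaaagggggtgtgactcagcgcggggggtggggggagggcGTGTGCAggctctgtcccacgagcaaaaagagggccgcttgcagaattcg
The window of 250 bases before to 50 after the start held 6 copies, which 0.364% of all windows reached, and that of *Mt1* held 3, which 10.02% reached. At least 1 copy stood in 59.6% of windows, so single copies are common.

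Of the other genes named for the largest folds outside the lists, *Saa3*, an acute-phase serum amyloid, had 74.5, 50.6, 67.5 and 59.5 CPM against 10.7, 10.6, 8.92 and 11.2 (log2 fold 2.61, adjusted p = 9.3e-17 in edgeR). *Myb* had 31.2, 34.1, 38.9 and 39.7 CPM against 5.37, 5.58, 7.999 and 6.401 (2.51). Neither gene's groups overlapped. *Pclaf*, a PCNA-binding protein (2.22), *Gmnn*, which restrains repeated firing of origins (2.08), *Ncapg2* of condensin II (2.11) and *Cip2a* (2.10) were also among the 10, and have known parts in the cell cycle. The lowest were *Spink12* (-4.27), *Car6* (-4.17; 46.5, 29.9, 30.6 and 56.8 CPM against 716, 707, 648 and 829) and *Ccl21a* (-3.94), a lymphatic chemokine. Against early hair shaft spots *Ccnd2* (1.70) and *Cldn10* (2.30) were higher and *Krt87* (455 against 3306 CPM, -2.97) and *Cdkn1a* (-1.70) lower. Against inner root sheath spots *Cldn10* (2.98) and *Ptn* (2.82) were higher. Against melanocyte-rich spots the pigment cell genes *Slc24a5* (-3.41), *Ptgds* (-3.31) and *Gpnmb* (-3.01) were lower, as the choice of those spots implies.

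The gene that drives Cre in these mice, *Krox20* (listed as *Egr2*, ENSMUSG00000037868), had 13.9, 14.96, 13.97 and 19.9 CPM in proliferating and 33.4, 37.1, 32.9 and 41.9 CPM in other spots (log2 fold -1.22, adjusted p = 7.9e-11 in edgeR). The groups did not overlap. At matched depth the log2 fold was -0.65, and against adjacent spots no difference was detected (0.01, adjusted p = 0.96). At 5500 UMIs per spot, 8.93% of proliferating spots held a *Krox20* UMI, against 6.56% of muscle, 18.95% of epidermis and 18.9% of all other spots, so the share was near that of muscle. *Lrig1*, a marker of upper follicle stem cells, had 18.2, 17.4, 18.96 and 21.4 CPM against 57.6, 58.5, 59.3 and 78.1 (-1.73) and was also lower than in adjacent spots (-0.43). *Lgr6*, another marker of upper follicle stem cells, went the other way and was named after its values were seen. It had 14.1, 15.9, 11.6 and 12.7 CPM against 5.67, 5.48, 5.50 and 5.81 (log2 fold 1.29; 1.22 against adjacent, 1.76 against early hair shaft, 1.98 against inner root sheath and 1.83 against melanocyte-rich spots), with no overlap between proliferating and all other spots, and did not pass the test after thinning (0.65, adjusted p = 0.11 in edgeR). *Nestin* (*Nes*) had 6.06, 7.48, 9.65 and 6.75 CPM against 20.5, 19.2, 21.8 and 22.6 (-1.48; -1.22 against adjacent spots). Neither *Lrig1* nor *Nestin* overlapped between the groups. The *CreERT* sequence was not analysed here.

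Each slice was also divided by position into 3 strips. The labels do not say which mouse a strip holds, so differences between strips cannot be told apart from differences between mice. The share of proliferating spots was 6.15%, 8.64%, 7.37% and 7.12% of the left strip in slices 1 to 4, 10.3%, 10.5%, 10.8% and 9.19% of the middle and 6.99%, 4.53%, 5.51% and 7.30% of the right strip. The middle strip held the highest share in every slice. With the strips as replicates in place of slices, the median log2 fold was 1.78 for replication and 2.03 for mitotic genes. The log2 fold of *Krox20* was -2.35 in the left strip alone, -1.02 in the middle and -0.96 in the right, and that of *Cdkn1a* -1.10, -1.09 and -0.59. *Shh* had 2.09, 2.20 and 1.86 and *Mt2* 2.32, 2.52 and 2.50, so these genes were higher in each strip.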

How the data were processed

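The authors deposited counts of unique molecular identifiers (UMIs) for every gene and spot of 4 Visium slices, made with Space Ranger 2.0.1 according to the header of the matrices and on mm10 according to the submitters' processing notes, as raw counts of the spots that lie over tissue. Spots with fewer than 250 genes were left out (9 of 6420). Barcodes name array positions, and 747 of 2483 distinct barcodes occurred in all 4 slices. Doublet callers were not used, since a spot holds several cells. The rule for the spots, the gene lists and the tests were chosen with earlier results of these data known.

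UMIs were summed per slice and set of spots and tested in edgeR 4.0.16 (R 4.3.3; TMM normalization, filterByExpr, quasi-likelihood test, slice as a block), with Benjamini-Hochberg adjustment over all genes and a threshold of 0.05. The score genes entered no count. Scripts were tested on simulated data with far fewer changed genes than were called here. That run therefore does not cover how the scaling behaves when most genes change. Sums with the same slice number share their sections, and their departures from the set means correlated at 0.27, 0.21, 0.14 and 0.18 over 13582 genes, so slice numbers pair the sums. CPM are UMIs per 1000000 UMIs of the summed spots. Comparison sets left out spots shared with the proliferating set. Genes named from lists were those with the largest fold and those against the direction of their list. Outside the lists, the 10 highest and 10 lowest log2 folds with a mean of at least 20 CPM and the same direction in 4 of 4 slices were eligible. Genes named beyond these were chosen after their values were seen. Position and depth were computed in Python 3.11.15 (numpy 2.4.6, scipy 1.17.1). Alternatives covered other shares of spots (5% and 12%), thinning to 5500 UMIs, matched depth, another score, a minimum of 1000 genes, adjacent spots left out, each slice left out, no replicate block, library size alone, no filter on low counts and DESeq2 1.42.0. Strips of tissue were added later, with the data in view. Intervals and SDs cover slices, not mice.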

Additional observations from a re-analysis of the deposited data

Results flagged for a closer look

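In 34 groups of 4 slices, the log2 ratios of summed list levels between proliferating and all other spots and the position and depth measures were searched for a slice distant from the other slices. One stood out: the log2 ratio of the summed skeletal muscle genes was -0.61 in slice 1, nearer to 0 than in slices 2 to 4. Chance gives about 1 in 20 such groups.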

How the results depend on the processing

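Thinning to 5500 UMIs, which leaves fewer UMIs and also chose the spots anew, gave 2768 higher and 3048 lower genes against all other spots, 1482 and 1591 against adjacent spots (238 and 492 at a log2 fold of at least 1), 1523 and 1636 against early hair shaft, 1883 and 1890 against inner root sheath and 875 and 1040 against melanocyte-rich spots. At matched depth, 3155 genes were lower than in all other spots, and 500 and 954 were higher and lower by a log2 fold of at least 1. The left strip alone gave 2956 and 3120 and the right strip 3079 and 3264, with fewer UMIs by construction. DESeq2 called fewer genes than edgeR in every comparison. It gave 4080 higher and 4172 lower against all other spots and 2316 and 2428 against adjacent spots. Against early hair shaft spots it gave 2211 and 2501, and against inner root sheath spots 2407 and 2782. Against melanocyte-rich spots it called 1349 and 1566 genes. The cause was not tested. Without the replicate block, 4393 and 4695 genes were called against all other spots, and the block moved no count by more than 1.5 times.

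With the top 5% of spots, the differences of medians were 3.25 steps to the epidermis and -2.5 to muscle, and proliferating neighbours differed by 11.9 percentage points. With the top 12% these were 3.5 steps to the epidermis, -1 to the adipose set and 29.0 points. Thinned spots gave 2.75 steps to the epidermis and a log2 ratio of gene numbers of -0.021, and the other score 2.88 steps. For these the cause was not tested, apart from set size and depth, which the alternatives fix. *Krt35*, *Dct* and *Cdkn1b*, which were not called against all other spots, were called in both directions: *Krt35* lower with the top 5% (-0.23) and at matched depth (-0.78), higher without adjacent spots (0.78) and with the top 12% (0.13); *Dct* lower at matched depth (-0.58), higher without adjacent spots (0.99), with thinned spots (0.27), in the left strip (0.38) and without slice 1 (0.23); *Cdkn1b* lower without adjacent spots (-0.17) and higher at matched depth (0.34). Of melanocyte genes not called against all other spots, *Tyrp1* (0.76), *Tyr* (0.80), *Pmel* (0.71), *Slc45a2* (0.67) and *Mlana* (0.94) were higher without adjacent spots, *Mlana* with thinned spots (0.30) and *Tyrp1* in the left strip (0.34). Called genes whose log2 fold changed sign, without passing the test, were *Cidec* (0.036), *Ckm* (0.024), *Tnnt3* (0.0022) and *Acta1* (0.045) with the top 12%, *Atp2a1* (0.0021), *Adipoq* (-0.053) and *Dll1* (-0.043) with thinned spots, *Sfrp2* at matched depth (0.074), and *Tubb4b* (0.050) and *Adipoq* (-0.10) in the right strip. The cause was not tested.

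With each slice left out in turn there were 4345 to 4650 higher and 4550 to 4703 lower genes against all other spots (905 to 989 and 2121 to 2207 at a log2 fold of at least 1), 3050 to 3263 and 3187 to 3289 against adjacent spots (420 to 454 and 1000 to 1082), 2788 to 3131 and 2972 to 3238 against early hair shaft, 3106 to 3428 and 3210 to 3426 against inner root sheath and 2021 to 2214 and 2248 to 2519 against melanocyte-rich spots. Steps to the epidermis stayed at 3, steps to muscle lay between -3.33 and -3 and to the adipose set between -0.33 and 0, neighbours between 18.6 and 21.7 points, and the log2 ratios between 0.93 and 1.00 for UMIs and 0.52 and 0.57 for genes. Of the values of single named genes under the alternatives, 3395 stayed on their side of the threshold with no called value turning, among them 48 that were not called and changed sign; 90 no longer passed, 26 newly passed and 21 changed sign with a call on at least 1 side. Slices of the same 3 mice limit every test, and depth limits genes of few UMIs such as *Edar*, *Nog* and *Orc1*.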

Other observations

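Over the comparisons with all other, adjacent, early hair shaft, inner root sheath and melanocyte-rich spots, 338 genes were higher by a log2 fold of at least 1 with an adjusted p under 0.05 in edgeR in all 5, and 125 of them were in a fixed list. The comparisons share the proliferating spots. A gene of low level can also pass the filter through the proliferating spots alone. The number and the order of the folds are therefore a description. Among these genes the log2 fold against adjacent spots was largest for *Arhgef39* (2.17), *Orc1* (2.09), *Mastl* (1.95), *Tmem132c* (1.94) and *Lrr1* (1.90), followed by *Saa3* (1.89), *Myb* (1.83) and *Mxd3* (1.83). *Mastl*, a kinase that restrains a phosphatase during mitosis, and *Mxd3*, a member of the Myc network, belong to the cell cycle or to growth control. The first 5 rest on few UMIs in the proliferating spots: 80 for *Arhgef39*, 86 for *Orc1*, 113 for *Mastl*, 109 for *Tmem132c* and 163 for *Lrr1*.

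At 5500 UMIs per spot, *Mki67* was found in 74.3% ± 7.03 of proliferating spots (SD, n = 4 slices), 39.0% of muscle, 29.5% of epidermis and 27.6% of all other spots. *Krt10*, a suprabasal keratin, was found in 23.6% of proliferating spots and 100% of epidermis spots, the latter chosen in part by *Krt10*.

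*Xist* made up 74.8% to 85.5% of the UMIs of *Xist* and Y-linked genes in the right strip of the 4 slices and 8.96% to 14.8% in the left and middle strips. Differences between strips in other genes thus cannot be told apart from differences between mice or between sexes. Proliferating spots were found in all strips.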
